A study of Mus musculus with 29 samples.

Results

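The comparison described here sets livers of mice on control chow with intermittent fasting (CC-IF) against livers of mice on high-fat diet with intermittent fasting (HFD-IF). Its members were chosen by column name in the deposited expression table: 4 CC-IF and 2 HFD-IF liver libraries, which are 6 of the 29 libraries given and 6 of the 14 from liver. Genes entered when their mean over these 6 libraries was at least 1 FPKM (fragments per transcript length and library size) and they were not Snora, Snord or Mir genes. That left 11509 of 24346 genes, and 56 small RNA genes that reached this mean were left out.

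All mice were male C57BL/6J made obese by 10 weeks of high-fat diet, a history that chow-fed and high-fat-fed groups share. For the next 4 weeks they stayed on high-fat diet with free access (HFD), stayed on it with fasting every other day (HFD-IF), moved to control chow with free access (CC), or moved to chow with intermittent fasting (CC-IF). HFD and CC contributed 4 liver libraries each, which served to estimate the spread between livers and to ask whether the diet difference was the same without fasting. The series design calls samples of a group biological replicates; whether the livers were taken on a fasting or a feeding day, and at what hour, is not given in the sources used here. The 2 HFD-IF livers are called library 0 and library 1 throughout, after the index in their columns, and the CC-IF livers library 0 to library 3.

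In a fasting liver, glycogen breakdown and then gluconeogenesis supply glucose, amino acid nitrogen goes to the urea cycle, and fatty acids are oxidised or turned into ketone bodies. On refeeding, insulin turns on lipid and glycogen synthesis. The hepatic circadian clock is a loop in which CLOCK and BMAL1 drive their own repressors through E-boxes, and feeding time is one of its cues. A high-fat diet is known for loading hepatocytes with triglyceride and for recruiting macrophages.

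The regulatory sequence shown belongs to Ciart, a repressor of CLOCK and BMAL1 and 1 of 2 clock genes that passed the test below. It is the stretch from base -150 to base -31 before the RefSeq gene start (GRCm38.p6, chr3:95882259-95882378, minus strand), in which capitals mark the E-box CACGTG, found 3 times, at -116, -58 and -44.
Ciart promoter: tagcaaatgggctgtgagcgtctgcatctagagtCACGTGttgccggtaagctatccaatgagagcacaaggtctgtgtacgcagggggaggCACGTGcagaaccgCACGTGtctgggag
For Usp2, the other of the 2, the RefSeq window (chr9:44084670-44084969, plus strand) belongs to a start inside the gene as GENCODE bounds it, and held neither this E-box nor the D-box TTANGTAA on either strand. RefSeq windows of 250 bases before to 50 after the start were matched for 48 of the 61 genes that were higher on chow and 21 of the 27 that were lower. The E-box stood in 5 of the 48 and 2 of the 21, against 10.5% of the 8782 windows of tested genes and 7.24% of all 27025 windows. The D-box stood in 3 of the 48 and 0 of the 21, against 1.54% of tested genes' windows. The sterol regulatory element TCACNCCAC was found in 0 of the 48 and 0 of the 21, as were the DR1 element bound by PPAR and the ER stress element. In tested genes' windows their shares were 1.14%, 0.0569% and 0.159%, so 0 in this few windows says little.

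The 6 livers held 15490 to 16343 genes above 0, the most in HFD-IF library 1, where the 4 CC-IF livers reached at most 15615. Read totals are not in the table. Depth relative to CC-IF library 3 was estimated from the commonest gene-by-gene ratio among values under 0.3 FPKM. HFD-IF library 1 was at 1.32 times that depth, and the other 4 at 0.877 to 0.966 times. These estimates are rough: 39 of 1390 genes held the commonest ratio in HFD-IF library 1, and 17 of 1431 in CC-IF library 2. The 2 HFD-IF livers differed from each other more than any of the 18 other same-group pairs of livers. Their r across genes was 0.940 against 0.967 to 0.986, and 9.09% of genes lay at least 2-fold apart against 0.834% to 2.92%. Of 16 hepatocyte markers, 15 lay between 19.6 and 13000 FPKM in all 6 livers. Alb, the serum albumin gene, was listed at 40100 and 29200 FPKM in HFD-IF libraries 0 and 1. It was listed at 0 in all 4 CC-IF, 3 CC and 1 HFD liver. It thus separated the 2 compared groups, but a 0 beside these other hepatocyte markers is not read as expression. Alb is left out of the 2 scatter plots. Whether the processing behind these zeros also shifted other genes, and so small list medians, was not tested.

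HFD-IF library 0 lay within the range of the 4 CC-IF livers for 53.7% of genes, and HFD-IF library 1 for 36.7%. Differences of the CC-IF mean from each of the 2 had the same sign in 57.5% of genes, and their r across genes was 0.23. Both differences use the same CC-IF livers. This r includes Alb and the short RNA gene Gm24148, the latter at -10.16 and -7.92. Points so far out on both axes can raise an r, and it was not taken without them. The genes farthest apart between the 2 were taken as a description, without a test. Library 1 was the higher in Cdkn1a, a cell cycle inhibitor (0.556 and 49.7 FPKM), in Ly6d (2.98 and 111 FPKM), in the iron-chelating lipocalin gene Lcn2 (4.54 and 141 FPKM) and in the glutathione transferase Gstm3 (11.4 and 295 FPKM). Library 0 was the higher in Hsd3b5, a male-biased steroid dehydrogenase (85.9 and 0.16 FPKM), in Amd2 (23.9 and 0.00832 FPKM), in the short transcript Snhg9 (19.3 and 0 FPKM) and in the organic anion transporter Slco1a1 (126 and 7.03 FPKM). The male-biased genes among them varied within CC-IF as well: Hsd3b5 ranged from 0.774 to 41.0 FPKM and Slco1a1 from 10.8 to 104 FPKM.

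Markers of macrophages and matrix moved with library 1. The summed level of 16 markers of infiltrating and lipid-associated macrophages was 73.7 FPKM in HFD-IF library 0 and 355 FPKM in library 1, and 70.3 to 125 FPKM in CC-IF. All 16 were higher in library 1 than in any CC-IF liver, as were 27.8% of all genes tested. Library 0 was within the CC-IF range for 12 of the 16, as for 53.7% of all genes tested. Gpnmb, a glycoprotein of lipid-laden macrophages, was 0.160 and 25.2 FPKM in HFD-IF libraries 0 and 1 and 7.62, 3.33, 0.0253 and 0.419 FPKM in CC-IF. Cd68, a lysosomal macrophage protein, was 5.52 and 38.7 FPKM against 3.76 to 10.3 FPKM. Only library 1 stood outside the chow livers in both genes.

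Kupffer cell markers summed to 311 and 684 FPKM in HFD-IF and 269 to 316 FPKM in CC-IF. Of these 15 markers, 11 were higher in library 1 than in library 0, and the rest were not. Clec4f, which marks Kupffer cells, was 20.4 and 43.0 FPKM in HFD-IF and 15.7 to 20.0 FPKM in CC-IF. Stellate cell, fibroblast and matrix genes summed to 862 and 1240 FPKM against 820 to 867 FPKM; Col1a1, a fibrillar collagen, was 5.24 and 64.1 FPKM against 5.86 to 14.1 FPKM. Sinusoidal endothelium did not follow, with sums of 192 and 188 FPKM against 184 to 222 FPKM. Lymphocyte markers were near absent, summing to at most 8.43 FPKM in any of the 6. In bulk tissue, more cells of a type and more RNA per cell cannot be told apart.

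**Figure D1:**
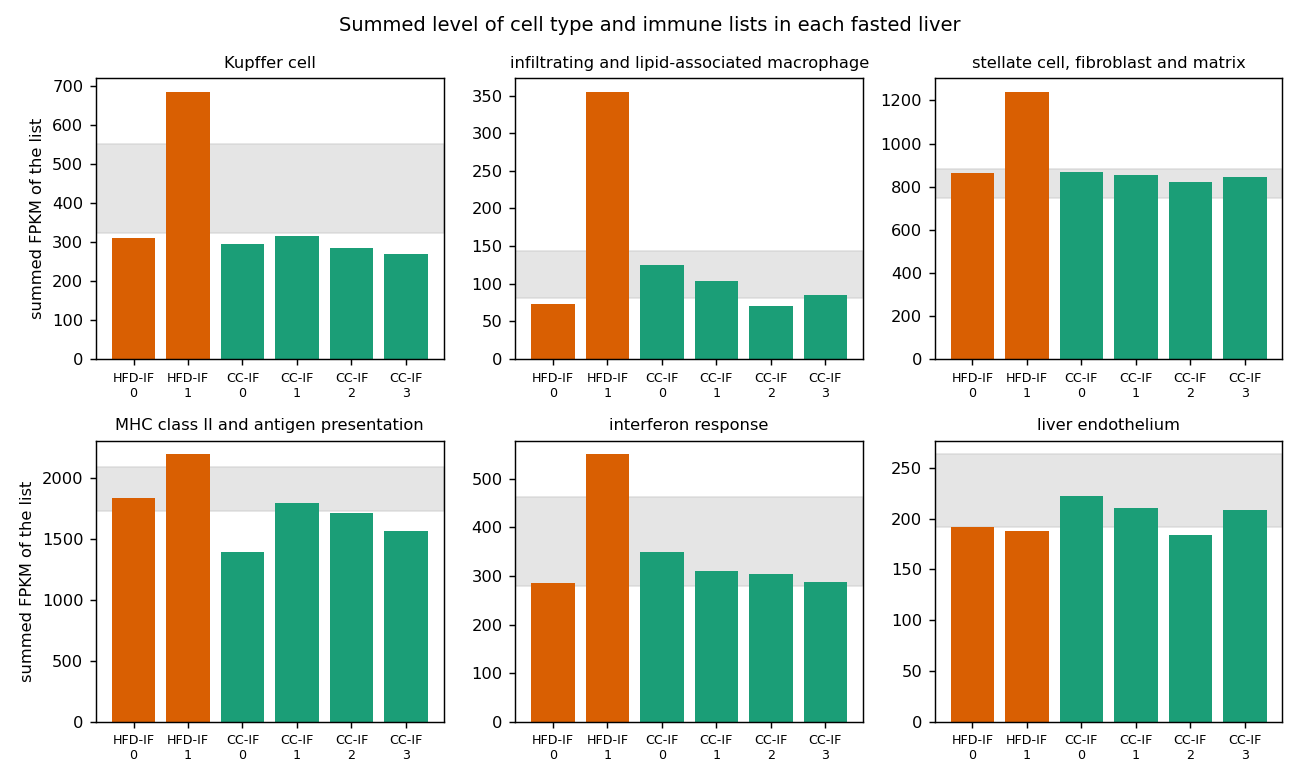
Summed FPKM of 6 lists of cell type and immune genes in each fasted liver; bars are single libraries (orange HFD-IF, green CC-IF) and the grey band spans the 8 unfasted HFD and CC livers. HFD-IF library 1 stands above all CC-IF livers in 5 of the 6 lists, while library 0 lies inside or near the CC-IF range in 4 of these 5 and above it for antigen presentation.

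With both HFD-IF livers in the comparison, 0 members of any of these 3 lists passed the test. Leaving out library 0 gave 11 of 14 tested macrophage genes, 10 of 15 Kupffer genes and 22 of 26 matrix genes called lower on chow, as were 7.91% of all genes; leaving out library 1 gave 0 in each list and 0.0261% of all genes.

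The question of the main comparison was which genes differ between chow and high-fat diet when both are combined with fasting. The clock genes Usp2 and Ciart, the glucose and glycogen genes Slc37a4, Foxo1 and Ppp1r3b, the urea cycle genes Asl and Arg1 and the triglyceride genes Lpin1 and Dgat2 rose on chow. The interferon-induced gene Ifit1, the SREBP regulator Insig2, the bile acid enzyme Hsd3b7 and the immediate early gene Fos fell. limma called 88 of 11509 genes at an adjusted p under 0.05 (0.765%), of which 61 (0.53%) were higher and 27 (0.235%) lower on chow. At least a 2-fold difference on the log2(FPKM + 1) scale was reached by 21 of the 61 and 11 of the 27. An unadjusted p under 0.05 was reached by 2089 genes (18.2%). In each of the 88, the 4 CC-IF livers lay on one side of both HFD-IF livers, a separation that 21% of all genes showed.

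These calls are near the threshold: 82 of the 88 had an adjusted p of at least 0.03. A fit on the 6 fasted livers alone gave 3 calls, 2 of them among the 88, and a fit with library weights gave 0 (829 at an unadjusted p under 0.05). Counts also turned on single libraries. Without HFD-IF library 0 there were 1875 calls (16.3%), including 87 of the 88, and without library 1 there were 11 (0.0956%), including 4. Dropping CC-IF library 1, 2 or 3 left 1, 4 or 1 call, dropping CC library 0, 1 or 2 left 20, 20 or 10, and dropping HFD library 0 or 2 left 31 or 29. The sign of all 88 stayed the same in all 14 such fits, which was fixed in advance. In each gene all CC-IF livers lay on the same side of both HFD-IF livers. Leaving out an HFD or CC liver does not alter this difference.

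**Figure D2:**
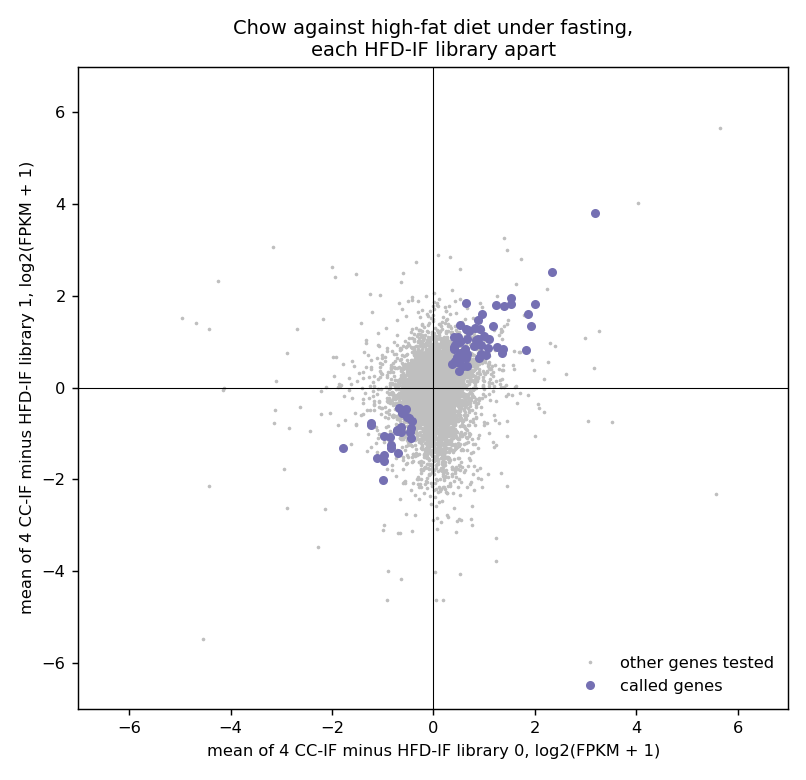
Difference of the 4 CC-IF livers' mean from HFD-IF library 0 (horizontal axis) and from library 1 (vertical axis), log2(FPKM + 1); each point is a gene and the 88 called genes are purple. Called genes lie in the upper right (61) and lower left (27), while 57.5% of all genes have the same sign on both axes; 5 genes beyond 7 on either axis, 1 of them called (the short RNA gene Gm24148), and Alb are not drawn.

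Rhobtb1, which encodes a protein with BTB domains, had the smallest adjusted p and was the only gene called in all 14 fits that left out a library (chr10:69151434-69291791). Its levels were 18.1 and 18.5 FPKM in HFD-IF and 40.3, 37.2, 36.0 and 45.8 FPKM in CC-IF. The 2 HFD-IF livers were nearly equal here and all CC-IF livers were higher, by 1.08 ± 0.10 on the log2 scale (SE, n = 4 and 2; limma, adjusted p = 0.00088). Livers without fasting were between these, at 24.4 ± 1.44 FPKM on HFD and 25.6 ± 1.64 FPKM on CC (SD, n = 4 each).

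The largest rise on chow was that of Rgs16, a regulator that shortens G protein signals (chr1:153740349-153745468). It was 4.08 and 2.31 FPKM in HFD-IF and 36.2, 90.4, 26.5 and 47.6 FPKM in CC-IF, higher by 3.49 ± 0.71 (limma, adjusted p = 0.044). No value of either group reached the other, although CC-IF itself spanned more than 3-fold. HFD livers also ranged widely, from 6.93 to 62.3 FPKM, and the lowest of them was below every CC-IF liver. Both HFD-IF livers were below all others, and HFD-IF had the lowest mean of the 4 regimens.

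Lpin1, the lipin phosphatase that makes diacylglycerol and also acts with PPAR alpha, had the next largest rise (chr12:16535669-16610966). It stood at 12.6 and 10.9 FPKM in HFD-IF and at 41.1, 88.5, 72.5 and 78.4 FPKM in CC-IF, a difference of 2.43 ± 0.50 (limma, adjusted p = 0.0483). HFD-IF was again the lowest of the regimens, with 65.2 ± 51.3 FPKM in HFD and 100 ± 19.2 FPKM in CC. Of 26 measured lipid droplet and triglyceride genes, 2 rose (0.53% of all genes did), 0 fell and 24 did not pass. Their median difference was 0.05 against 0.018 over all genes. Dgat2, which performs the last step of triglyceride synthesis, was the other that rose: 246 and 151 FPKM in HFD-IF against 327, 349, 302 and 332 FPKM in CC-IF (0.76 ± 0.16; limma, adjusted p = 0.0494). Tm6sf2, which helps load lipid into VLDL, differed by 0.68 and the droplet coat gene Plin3 by -0.61, and neither passed (limma, adjusted p = 0.0993 and 0.11).

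Of the clock genes, 2 rose. Usp2, a deubiquitinase under clock control (chr9:44067021-44095627), was 12.8 and 14.8 FPKM in HFD-IF and 49.1, 52.6, 56.0 and 61.7 FPKM in CC-IF. Ciart, whose E-boxes are shown above, was 3.09 and 2.33 FPKM in HFD-IF and 8.54, 9.36, 12.8 and 13.4 FPKM in CC-IF. Both separated the diets without overlap, by 1.91 ± 0.29 and 1.68 ± 0.32 (limma, adjusted p = 0.03 and 0.0398).

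Of 19 measured clock genes these 2 passed higher, against 0.53% of all genes, and 0 lower. The median was 0.57, and 10 separated the groups on the higher side, as 12.5% of all genes did. Per1, a core repressor, was 6.72 and 13.5 FPKM against 19.3, 22.3, 29.3 and 26.1 FPKM (1.24 ± 0.32; limma, adjusted p = 0.0813). Without fasting, Usp2 was 3.59 ± 1.99 FPKM on HFD and 1.79 ± 0.449 FPKM on CC, so that both fasted groups exceeded both others; the group means of Ciart had the same order, at 1.22 ± 1.0 and 0.314 ± 0.185 FPKM. The hour at which each liver was taken was not given, and its part in these differences was not tested.

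**Figure D3:**
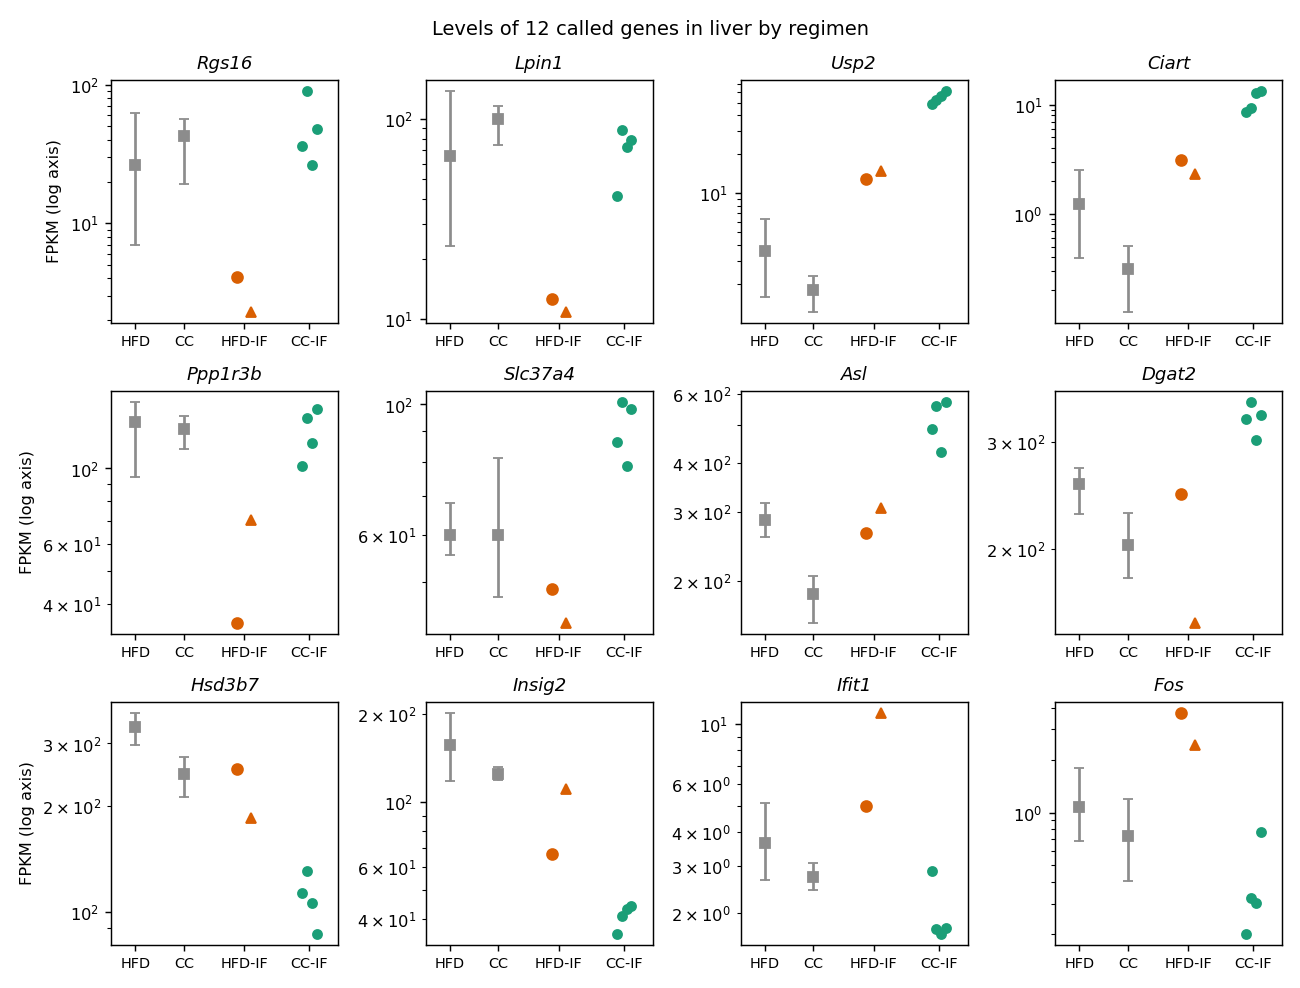
FPKM on a log axis of 12 called genes in 14 livers; circles and triangles are HFD-IF libraries 0 and 1 (orange), green points the 4 CC-IF livers, and grey squares with bars the mean and range of 4 HFD and 4 CC livers. No CC-IF liver overlaps either HFD-IF liver; mean levels of Usp2 and Ciart are lowest in the unfasted groups, and Rgs16 and Lpin1 are lowest in HFD-IF.

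Genes of glucose output and glycogen were the next group. Among 14 measured gluconeogenesis genes, 2 rose (0.53% of all genes did), 0 fell and 12 did not pass. Their median was 0.30, and 12 of 14 were above 0, as were 6096 of all 11509 genes. Slc37a4, which carries glucose 6-phosphate into the endoplasmic reticulum for release as glucose, was 48.7 and 42.7 FPKM in HFD-IF and 86.3, 101, 78.6 and 98.2 FPKM in CC-IF (0.97 ± 0.18; limma, adjusted p = 0.0398). Foxo1, the insulin-restrained transcription factor, was 18.8 and 17.6 FPKM against 29.2, 35.1, 35.1 and 42.1 FPKM (0.91 ± 0.17; limma, adjusted p = 0.0398). For both genes the 2 HFD-IF livers were close together and below every CC-IF liver. Pck1, the entry enzyme of gluconeogenesis, was 795 and 1380 FPKM against 2240, 2810, 2450 and 2180 FPKM, without overlap but just outside the threshold (1.20 ± 0.26; limma, adjusted p = 0.0515). Pcx, pyruvate carboxylase, differed by 0.39 and overlapped (limma, adjusted p = 0.22).

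Ppp1r3b brings protein phosphatase 1 to glycogen in liver. Of 19 genes of glucose uptake, glycolysis and glycogen (median 0.25), only Ppp1r3b was called, and 0.53% of all genes were called higher. It was 35.2 and 70.7 FPKM in HFD-IF and 102, 141, 119 and 150 FPKM in CC-IF (1.32 ± 0.26; limma, adjusted p = 0.0398). HFD and CC livers, at 137 ± 29.1 and 131 ± 12.6 FPKM, were at the level of CC-IF. Glycogen synthase Gys2, the insulin receptor Insr and the glycolytic kinase Pgk1 differed by 0.49, 0.44 and 0.31, and did not pass (limma, adjusted p = 0.113, 0.118 and 0.158).

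In nitrogen metabolism, 2 of 32 urea cycle and amino acid breakdown genes rose (0.53% of all genes did), 0 fell and 30 did not pass. Their median was 0.23, and 13 separated on the higher side, as 12.5% of all genes did. Asl, which splits argininosuccinate into arginine and fumarate (chr5:130011258-130029247), was 266 and 307 FPKM in HFD-IF and 488, 560, 426 and 573 FPKM in CC-IF (0.83 ± 0.14; limma, adjusted p = 0.0347). Arg1, arginase, which releases urea, was 706 and 803 FPKM against 1140, 1140, 1040 and 1180 FPKM (0.57 ± 0.11; limma, adjusted p = 0.0398). In both, each fasted group was tight and the groups were well apart. Prodh, the first enzyme of proline breakdown, differed by 0.70, and serine dehydratase Sds by 1.28, with 66.0 FPKM in HFD-IF library 0 and 170 FPKM in library 1; neither passed (limma, adjusted p = 0.0709 and 0.0819).

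Bile acid genes moved in both directions, with 1 of 18 measured genes called higher and 1 lower, against 0.53% and 0.235% of all genes. Their median was 0.22, with -0.16 against library 0 and 0.65 against library 1. Hsd3b7, an early enzyme in making bile acids from cholesterol (chr7:127800604-127803802), was 254 and 184 FPKM in HFD-IF and 113, 130, 106 and 86.5 FPKM in CC-IF, a fall of 1.00 on the log2 scale with an SE of 0.17 (limma, adjusted p = 0.0343). Akr1d1, the reductase that acts further along the same route, was 81.5 and 56.1 FPKM against 137, 157, 101 and 143 FPKM (0.96 ± 0.18; limma, adjusted p = 0.0398). CC-IF was thus the lowest of the 4 regimens in Hsd3b7 and the highest in Akr1d1. The conjugating enzyme Slc27a5 and the uptake carrier Slc10a1 had HFD-IF library 0 near the CC-IF livers and library 1 far below, at 217 and 170 FPKM, and did not pass (limma, adjusted p = 0.14 and 0.156).

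Among 27 measured genes of xenobiotic metabolism, 1 rose (0.53% of all genes did) and 26 did not pass (median 0.63, and 0.10 against library 0). Cyp3a25, a steroid-oxidising cytochrome P450, was 233 and 167 FPKM in HFD-IF and 492, 418, 386 and 367 FPKM in CC-IF (1.06 ± 0.23; limma, adjusted p = 0.0494). Cyp2a5 and Por, the reductase that supplies microsomal P450s with electrons, differed by 1.42 and 1.30 without overlap and narrowly missed (limma, adjusted p = 0.0576 and 0.0722). Gsta1, a glutathione transferase, was 36.3 FPKM in HFD-IF library 1 and at most 1.84 FPKM in the other 5 livers (limma, adjusted p = 0.0821). P450 and glutathione transferase genes have near-identical copies, and how fragments shared between copies were counted is not given.

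Female-biased genes were less well measured, with 7 of 14 passing the level filter and 1 called higher (0.53% of all genes were). That gene was Fmo2, a flavin-containing monooxygenase, at 5.16 and 6.41 FPKM in HFD-IF and 29.6, 15.2, 15 and 31.2 FPKM in CC-IF (1.73 ± 0.36; limma, adjusted p = 0.0494). Cux2, a repressor of male-biased liver genes, was 0.332 and 0.418 FPKM against 15.7, 1.25, 3.16 and 9.19 FPKM, and Cyp2b9 22.1 and 6.85 FPKM against 201, 85.4, 3.62 and 196 FPKM. CC-IF livers were far apart in both, and neither passed (limma, adjusted p = 0.0753 and 0.494). The thioesterase Acot3 differed by 2.27 (limma, adjusted p = 0.16). Male-biased genes had 0 of 21 called; their median was -1.01 against library 0 and 0.71 against library 1.

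Other large rises fell outside these lists. Upp2, a liver uridine phosphorylase, was 70.4 and 52.3 FPKM in HFD-IF and 198, 266, 186 and 183 FPKM in CC-IF (1.74 ± 0.36; limma, adjusted p = 0.0494). St3gal5, which makes the ganglioside GM3, was 43.0 and 65.3 FPKM against 125, 152, 184 and 219 FPKM (1.63 ± 0.33; limma, adjusted p = 0.0434). Unfasted means of St3gal5, 50.5 FPKM on HFD and 58.9 FPKM on CC, lay between the 2 HFD-IF livers; for Upp2 they were 58.2 and 31.0 FPKM, the CC mean below both. Map2k6, a kinase that activates p38, and Ppp1r1b, an inhibitor of protein phosphatase 1, rose by 1.59 and 1.51 (limma, adjusted p = 0.0343 and 0.0398). Tk1, thymidine kinase, was the only one called of 14 measured proliferation genes, at 24.5 and 16 FPKM against 45.3, 52.1, 41.0 and 46.6 FPKM (1.18 ± 0.22; limma, adjusted p = 0.0398). Tk1 overlaps the start of Afmid on the opposite strand (chr11:117825924-117839908), which was also called higher (0.97, limma, adjusted p = 0.0398). Whether the 2 share fragments was not tested. Over all genes, 0.53% were called higher. The same list had 12 of 14 genes below 0, as were 5413 of all 11509 genes. Cyclin D1 (Ccnd1) was 7.17 and 72.5 FPKM in HFD-IF and 5.22 to 12 FPKM in CC-IF. Ccnd1, Mcm2 and Myc did not pass (limma, adjusted p = 0.21, 0.243 and 0.271).

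On the lower side, Fos, a subunit of the immediate early factor AP-1, fell most among the genes that could be named by the rule (chr12:85473890-85477273). It was 3.73 and 2.43 FPKM in HFD-IF and 0.201, 0.322, 0.303 and 0.774 FPKM in CC-IF, a difference of -1.54 ± 0.25 (limma, adjusted p = 0.0334). HFD and CC livers were between, at 1.07 ± 0.501 and 0.73 ± 0.384 FPKM, and levels this low rest on few fragments. Insig2, which holds SREBP in the endoplasmic reticulum (chr1:121304353-121332589), was 66.5 and 111 FPKM against 35.6, 40.9, 43.2 and 44.1 FPKM (-1.05 ± 0.20; limma, adjusted p = 0.0398). Both fasted groups were below the unfasted, at 157 ± 34.0 FPKM on HFD and 125 ± 6.97 FPKM on CC. Among genes that SREBP drives, 0 of 24 cholesterol genes were called, with a median of 0.06 (-0.15 against library 0 and 0.51 against library 1). Fatty acid synthesis had 0 of 20 called and a median of 0.21 (0.12 and 0.64). Without library 0, 5 of the 24 and 4 of the 20 were called higher, as were 8.38% of all genes, and 1 of the 20 lower.

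Ifit1, induced by interferon, was 4.97 and 11 FPKM in HFD-IF and 2.87, 1.75, 1.68 and 1.76 FPKM in CC-IF (-1.5 ± 0.26; limma, adjusted p = 0.0347). No other of the 22 measured interferon response genes was called, and 0.235% of all genes were called lower. The list median was -0.79, and 21 of 22 were below 0, as were 5413 of all 11509 genes. The median was -0.15 against HFD-IF library 0 and -1.35 against library 1, the liver with high macrophage markers, and 15 were called lower without library 0, as were 7.91% of all genes. Rsad2 and Irgm1 of that response differed by -1.29 and -0.87 (limma, adjusted p = 0.0714 and 0.0854).

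Other immune genes that fell were Irf5, an interferon regulatory factor of myeloid cells, Gbp6, a guanylate-binding protein, and Pilra, an inhibitory myeloid receptor. Irf5 was 5.62 and 7.77 FPKM in HFD-IF and 1.64, 2.13, 1.81 and 2.74 FPKM in CC-IF (-1.32 ± 0.25; limma, adjusted p = 0.0398). Gbp6 and Pilra fell by 1.23 and 1.08 (limma, adjusted p = 0.0343 and 0.0435). In these 3 genes and in Ifit1 library 1 was the higher of the HFD-IF pair. Whether the cell types of library 1 contribute was not tested.

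Cldn1, a tight junction protein (27.2 and 36.2 against 13.0 to 16.9 FPKM), Nav2, a cytoskeletal protein first known from neurons (23.0 and 17.1 against 6.78 to 11.6 FPKM), and cytoplasmic actin Actg1 (123 and 131 against 44.4 to 85.5 FPKM) fell by 1.04, 1.02 and 1.01 (limma, adjusted p = 0.03, 0.0398 and 0.0435). Fam25c was 105 and 163 FPKM against 42.1 to 63.4 FPKM (-1.28 ± 0.24; limma, adjusted p = 0.0398).

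Genes of succinate metabolism were read because the study's title names succinate. Of 17 measured members 0 were called, 3 had an unadjusted p under 0.05 on the higher side (10.6% of all genes) and 1 on the lower (7.55%), and the median was 0.21. Sucnr1, the succinate receptor, was 25.7 and 8.27 FPKM in HFD-IF and 12.4, 19.2, 10.3 and 11.1 FPKM in CC-IF, so that the 2 HFD-IF livers stood on both sides of the CC-IF livers (-0.18 ± 0.34; limma, adjusted p = 0.802). The succinate dehydrogenase subunits Sdha, Sdhb, Sdhc and Sdhd differed by 0.22, 0.26, 0.22 and 0.46, with the smallest adjusted p for Sdhd (limma, 0.0738), which was 149 and 135 FPKM against 208, 216, 165 and 197 FPKM.

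Several lists had no called member. All 44 measured respiratory chain and ATP synthase genes were above 0, as were 6096 of all 11509 genes. Their median was 0.28, but 0.08 against HFD-IF library 0 and 0.43 against library 1. Cytosolic ribosomal protein genes had 44 of 45 above 0 and a median of 0.29, with 0.36 against library 0 and 0.23 against library 1, and 32 of 45 separated the groups on the higher side (12.5% of all genes). Fatty acid oxidation and PPAR alpha targets had a median of 0.16 (0 of 41 called), the citric acid cycle 0.10 (0 of 19) and endoplasmic reticulum folding -0.39 (0 of 20, and -0.72 against library 0). For one-carbon enzymes it was 0.11 (0 of 19), for acute phase proteins -0.04 (0 of 21), for heat shock chaperones 0.26 (0 of 16), for ATF4 targets -0.61 (0 of 15, with 0.01 against library 0 and -0.54 against library 1), for hepatokines -0.21 (0 of 23) and for antigen presentation -0.87 (0 of 11). The glucocorticoid list had 0.41 (0 of 17), which was 1.34 against library 0 and -0.31 against library 1.

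**Figure D4:**
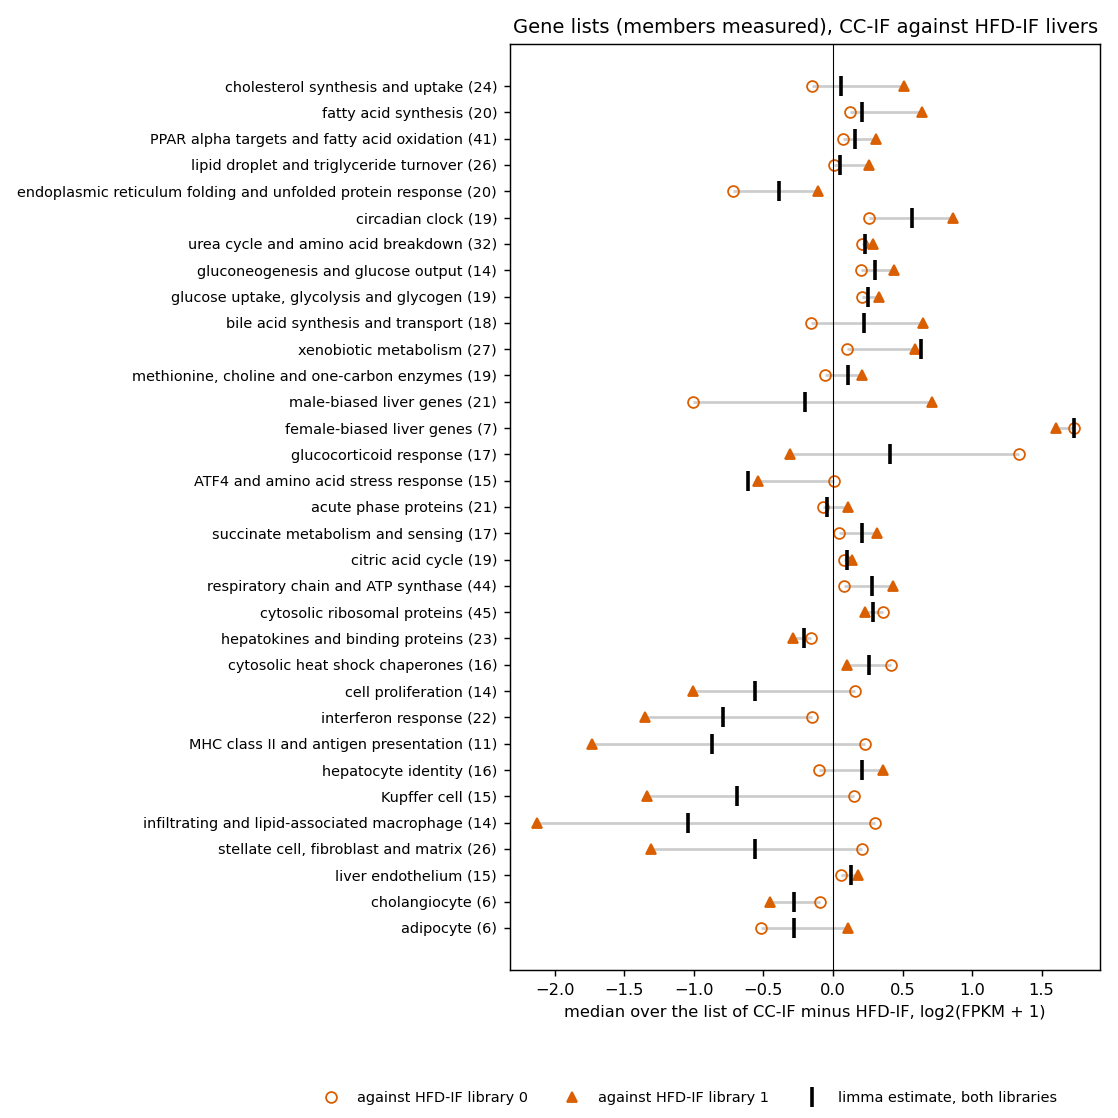
Median over each gene list (members measured, for lists with at least 6) of the CC-IF minus HFD-IF difference, log2(FPKM + 1); circles are against HFD-IF library 0, triangles against library 1 and black bars the limma estimate with both. Clock, ribosomal and amino acid lists lie on the same side of 0 against both libraries, whereas macrophage, matrix, antigen presentation and male-biased lists lie on opposite sides.

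Levels in all 4 regimens placed the called genes. CC-IF had the highest mean in 59 of the 61 genes that were higher and the lowest in 25 of the 27 that were lower. HFD-IF was the lowest of the 4 in 19 of the 61, and in 29 both fasted groups exceeded both unfasted ones. On the lower side, HFD-IF was the highest of the 4 in 16 of 27, and both fasted groups were below the others in 9. These counts are partly built in, because the genes were called on CC-IF against HFD-IF. No share over all genes was taken.

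The remaining question was whether diet made the same difference with and without fasting. The interaction, which is the CC-IF minus HFD-IF difference less the CC minus HFD difference, passed in 146 genes (1.27%; 131 higher, 1.14%, and 15 lower, 0.13%; limma). By the sign of the estimates alone, chow was below high-fat diet without fasting and above it with fasting in 129 of the 131. In all 15 lower ones the order was the opposite. Selection on the interaction favours opposite signs, so these counts do not show that each gene reversed. Of the 88 genes called under fasting, 39 also passed the interaction, which contains the difference they were called on. The overlap is therefore not independent. The CC-IF minus HFD-IF and CC minus HFD differences share no library. Across genes their r was 0.15, a description over genes that are not independent. Alb and Gm24148 are included in this r, and it was not taken without them.

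Read from the other side, CC against HFD gave 266 calls in the same genes (2.31%), 38 higher and 228 lower (1.98%). The 228 that were lower on chow without fasting had a median of 0.06 under fasting, with 124 of them above 0. Of the 61 genes higher on chow under fasting, 1 was called higher and 5 lower without it. Nav2 and Actg1 were among those lower on chow in both settings, at -0.87 and -0.73 without fasting (limma, adjusted p = 0.0174 and 0.0388).

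Cyp2a5, a coumarin-oxidising P450 (chr7:26835305-26843548), had the largest positive interaction among the named genes that passed. It was 194 ± 45.3 FPKM on HFD and 59.3 ± 21.4 FPKM on CC, a difference of -1.73, and 271 and 282 FPKM on HFD-IF against 759, 857, 496 and 931 FPKM on CC-IF. The interaction was 3.15 ± 0.41 (limma, adjusted p = 0.00901). Chow livers were thus the lowest of all regimens without fasting and the highest with it. Usp2, Upp2 and Ciart followed with 2.55, 2.52 and 2.34 (limma, adjusted p = 0.0114, 0.0298 and 0.0211).

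Of the nitrogen genes, Asl was 286 ± 27.2 FPKM on HFD and 186 ± 21 FPKM on CC, and its interaction was 1.45 ± 0.19; for Arg1 the levels were 984 ± 58.6 and 707 ± 60.8 FPKM and the interaction was 1.05 ± 0.15 (limma, adjusted p = 0.00901 for each). Prodh, at 79.5 ± 10.7 and 45.0 ± 4.35 FPKM, had 1.5, and the alanine aminotransferase Gpt, at 177 ± 12.7 and 104 ± 7.3 FPKM, 1.13 (limma, adjusted p = 0.0114 and 0.00901). Under fasting neither Prodh nor Gpt was called (limma, adjusted p = 0.0709 and 0.152), so no reversal is shown for them. Of the 32 genes of the list, 8 passed the interaction, all higher, against 1.14% of all genes; the list median was -0.45 without fasting and 0.23 with it. One-carbon enzymes had 4 of 19 and xenobiotic genes 3 of 27.

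Akr1d1, called higher on chow under fasting, was called lower without it (-0.72, limma, adjusted p = 0.0253). It was 78.6 ± 8.58 FPKM on HFD and 47.4 ± 4.87 FPKM on CC, with an interaction of 1.68 ± 0.23 (limma, adjusted p = 0.00901). Abhd15 fell from 23.0 ± 2.43 to 11.1 ± 1.74 FPKM on chow without fasting and was 24.1 and 24.4 FPKM on HFD-IF against 36.0, 34.6, 28.4 and 34.5 FPKM on CC-IF, an interaction of 1.43 ± 0.18 (limma, adjusted p = 0.00901). Cldn1 and Fam25c had interactions of -1.20 and -1.48, with differences of 0.16 and 0.20 without fasting (limma, adjusted p = 0.0182 and 0.0439). In the ATF4 list, the fasting hormone Fgf21 was the only one to pass, at -3.90 (limma, adjusted p = 0.039): it was 11.5 and 106 FPKM on HFD-IF, 3.51 to 9.78 FPKM on CC-IF, 8.54 ± 3.06 FPKM on HFD and 25.0 ± 7.3 FPKM on CC.

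The interaction count was 1832 without HFD-IF library 0 and 29 without library 1. It was 65, 52 and 51 without HFD libraries 0, 2 and 3, 45, 47 and 43 without CC libraries 0, 1 and 2, and 71, 27 and 30 without CC-IF libraries 0, 1 and 3.

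**Figure D5:**
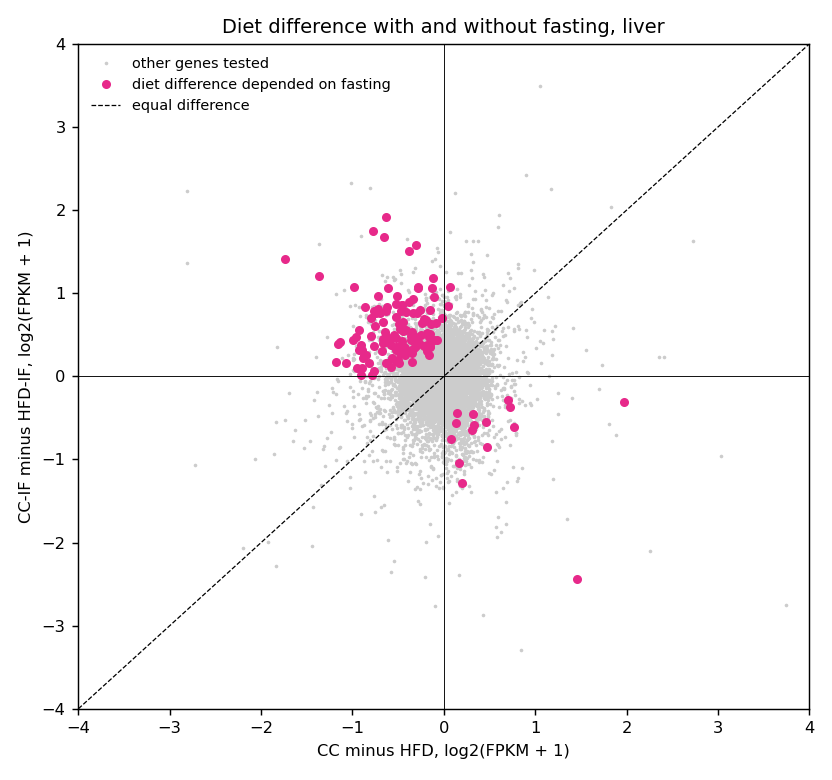
Diet difference without fasting (CC minus HFD, horizontal axis) and with fasting (CC-IF minus HFD-IF, vertical axis), log2(FPKM + 1), for each gene tested; pink points are the 146 genes whose diet difference depended on fasting and the dashed line marks equal differences. Most pink points (129) lie in the upper left and 15 in the lower right; 9 genes beyond 4 on either axis, none of them pink, and Alb are not drawn.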

How the data were processed

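RNA was measured in liver by sequencing of poly-A-selected, strand-specific libraries (2 × 125 bases, from about 20 mg of tissue and 1 µg of RNA, per the labels' protocols). The authors deposited 1 table of FPKM; per the submitters' processing notes reads were handled with Bowtie2 2.3.5.1, TopHat2 2.1.1, Trimmomatic 0.39 and FastQC 0.11.9 on GRCm38 (mm10). Not given in the sources used here are the FPKM program, its annotation, its use of strand and any scaling, so antisense and overlapping genes may share fragments. FPKM carries no read totals, so no counting intervals are given; relative depth comes from the spacing of values under 0.3 FPKM.

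Columns were tied to groups by name, with 0 left over; they count from 0 and the labels from 1, so they were not tied to numbered samples. Values were analysed as log2(FPKM + 1), which understates changes of low genes. limma 3.58.1 (R 4.3.3) fitted group as the only term over all 14 livers, with eBayes and its trend option; two-sided p-values had Benjamini-Hochberg adjustment over 11509 genes, at a threshold of 0.05. Errors after ± are standard errors of log2 differences and standard deviations of FPKM. A permutation test of 1 value over 4 against 2 libraries has 15 arrangements and a smallest p of 0.0667, so none was used. On simulated data for this comparison, 50 of 11509 genes were changed at each size. Of log2 changes of 0.5, 1, 2 and 3, 36%, 64%, 94% and 98% were called, with 8 false among 154 calls. The simulated livers all had the same spread per gene. The real HFD-IF pair had 9.09% of genes at least 2-fold apart, against 0.834% to 2.92% in other same-group pairs. These rates therefore need not hold for the real comparison.

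Named genes are the 10 highest and 10 lowest called changes without overlap (predicted models, pseudogenes and near-identical families left out), for each list with a call the 4 members lowest in p, Sucnr1 and Sdha to Sdhd, the 6 genes with the smallest interaction p, the 4 genes highest in each HFD-IF library against the other, and defining markers of lists that differ over 2-fold between them; Alb, Gm24148, Col1a1 and Fgf21 were chosen after their values were seen. A few genes meeting this rule are left out here. The members and the gene lists were chosen with earlier results of these data known. Coordinates are GENCODE M21 on GRCm38, matched by symbol; promoters are RefSeq (GRCm38.p6). Plots used matplotlib 3.10.9, numpy 2.4.6 and pandas 2.3.3 in Python 3.11.15. Alternatives were other pseudocounts (0.1 and 5), filters, scalings and limma options, and leaving out each library.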

Additional observations from a re-analysis of the deposited data

Results flagged for a closer look

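Spread within the 4 CC-IF livers was examined for 60 named genes, and 2 had 1 liver far from the other 3, where chance gives about 1 in 20. CC-IF library 0 was the high one in both: Ifit1 was 2.87 FPKM there and Plin3 was 20.7 FPKM.

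The diet difference depended on fasting in 146 genes, tested by the interaction term in limma, and 18 of the genes named here by the rule were among them. Of those, 16 had a positive interaction: Cyp2a5 3.15, Usp2 2.55, Upp2 2.52, Ciart 2.34, Map2k6 1.89, Ppp1r1b 1.89, Akr1d1 1.68, Cyp3a25 1.67, Prodh 1.5, Asl 1.45, Abhd15 1.43, Tk1 1.29, Gpt 1.13, Dgat2 1.1, Arg1 1.05 and Rhobtb1 1.01 on the log2 scale. Fam25c and Cldn1 had a negative one, at -1.48 and -1.2. Fgf21, at -3.90, was chosen after its values were seen and is not counted among the 18.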

How the results depend on the processing

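No paired analysis was possible because the columns carry an index from 0 and no replicate number of the labels. The count of 88 calls became 3 with the 6 fasted livers alone, 28 with no level filter and 0 with library weights (829 at an unadjusted p under 0.05), and was within 1.5 times of 88 with either other pseudocount, the other level filters, quantile or median scaling, no trend, a robust fit, or without genes whose longest transcript is under 300 nt (94 calls, an alternative chosen after seeing the data). Leaving out 1 library gave 1 to 1875. The interaction count of 146 became 96 with no filter, 76 with quantile scaling and 0 with library weights (1461 unadjusted), and 27 to 1832 on leaving out 1 library. The cause of these moves was not tested; where an HFD-IF library is left out, the other is assumed to vary like the remaining groups. The 8 genes chosen for differing between the 2 HFD-IF livers and the cell type markers are not in the next count. Among the other named genes, the sign of 3 turned with the HFD-IF library left out. Without library 0 and without library 1, Sucnr1 was 0.58 and -0.95, Ccnd1 -3.09 and 0.08, and Sdha 0.57 and -0.14. Of the markers, Col1a1 had library 0 below all CC-IF livers and library 1 above them. Of 30 named called genes, 30 stayed called without HFD-IF library 0, 3 without library 1 and 1 each without CC-IF library 1 or 3, and 0 changed sign under any setting. The signs of these 30 genes could not turn in fits that left out 1 library, since each gene separated the groups. Unknown read totals limit the weight of values near 1 FPKM.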

Other observations

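Transcripts of skeletal muscle were seen in 1 liver. CC-IF library 2 held Acta1 at 11.5, Mb at 9.43, Tnnt3 at 9.7, Myh1 at 6.16, Myl1 at 6.0 and Ckm at 4.68 FPKM, while the other 13 livers held at most 0.131 FPKM of any of them. These genes were chosen after their values were seen.

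Gm24148, which GENCODE types as a small nucleolar RNA but whose name the rule did not leave out, was listed at 1140 and 242 FPKM in the HFD-IF livers, at 0 in all 4 CC-IF and 4 CC livers and at up to 352 FPKM in HFD livers. It is 1 of the 27 lower calls, and FPKM of so short a transcript cannot be read as abundance.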
